A study of Sus scrofa with 28 samples.

Results

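The genes described here are members of the BCL2 family and caspases, which decide whether a damaged cell lives or dies. They were chosen as the probe sets whose annotation on the porcine array gave exactly 1 gene symbol out of 8: MCL1, BCL2L1, BCL2, BAX, BAK1, BID, CASP8 and CASP1. Of these 8 genes 7 were found, out of 6765 symbols in all, and they had 10 probe sets out of 23999. No probe set carried BCL2 as its single symbol in the annotation used here. BCL2L1, BAK1 and BID had a pair of probe sets each, and the brighter one over the 28 arrays represented the gene.

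The study measured lung RNA of large anesthetized swine that had breathed either air or the vapor of sulfur mustard (HD), a blister agent that alkylates DNA and injures the airways. All 10 animals were labelled female, were intubated and lay supine during the 10 min of exposure, and their lungs were removed at 12 h; strain and age were not given in the labels. There were 3 air animals (28, 29 and 44), 3 animals at a low dose of 60 µg/kg (31, 32 and 33) and 4 at a medium dose of 100 µg/kg (34, 39, 41 and 42). Each animal gave the left apical, median and caudal lobe, except that animal 39 had no caudal and animal 41 no apical array, which left 9 air, 9 low and 10 medium arrays. An exposed animal is the replicate, and each sample was whole lung tissue with all its cell types.

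Cells that suffer DNA damage can die through the mitochondrial pathway of apoptosis. In a healthy cell, survival proteins such as MCL1 and BCL-XL (the product of BCL2L1) hold the effectors BAX and BAK in check. BH3-only proteins, a group of short-motif family members that includes BID and NOXA (the product of PMAIP1), sense damage and tip that balance, after which BAX and BAK open the outer mitochondrial membrane and cytochrome c starts the executioner caspases. Caspase-8 starts the other route, from death receptors on the cell surface, and links the routes by cutting BID. Caspase-1 belongs to a separate program: inflammasomes activate it, and it then matures IL-1β and IL-18 and cuts gasdermin D, which ends in pyroptosis. Much of this control acts on proteins, by cleavage and binding, which transcript levels do not show.

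Values are signal intensities on a linear scale, given as the mean over the lobes of an animal, and levels of different probe sets are not compared. Differences are log2 differences from limma with their standard error (SE), on the scale log2(signal + 16), which makes differences of dim probe sets smaller. A probe set was called at an adjusted p under 0.05 over all 23999. Where groups are said to lie apart, the share of all probe sets that do so was not counted. The arrays had a median signal between 55.4 and 64.2 and a lower quartile between 12.1 and 19.0. SFTPC, the surfactant protein that marks alveolar type 2 cells, had mean signals of 2964 in air, 2811 in low and 3004 in medium animals. It was not like all markers of these cells, of which 4 of 7 listed were measured. Their median difference was 0.12 for low versus air, 0.06 for medium versus air and -0.26 for medium versus low. In the same order 3, 3 and 2 of the 4 were above 0. An index of RNA integrity, taken from the 3' and 5' control probe sets of actin and GAPDH as a mean log2 ratio, is higher where RNA is less intact. It was 2.14 in medium animal 39 and between 0.61 and 1.34 in the other 9 animals. The index also differed by exposure, averaging 1.11 for air, 0.76 for low and 1.22 for medium. Medium animal 34 had the lowest index of its group, at 0.66.

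None of the 10 probe sets passed the test in any comparison of exposures over animals. The gene with the lowest adjusted p against air was CASP1, whose mean signal was 476 ± 78.7 in air (SD, n = 3), 388 ± 38.3 in low (n = 3) and 293 ± 128 in medium animals (n = 4). BID had the narrowest interval around its difference from air at either dose, and CASP1 the widest. For low versus air 0 of 10 members were called, against 0% of all probe sets. For medium versus air it was 0 of 10 against 0.129%, which is 31 probe sets, and for medium versus low 0 of 10 against 0.00417%, which is 1 probe set. With so few calls on the whole array, a count of 0 among 10 is near the background. At an unadjusted p under 0.05, limma gave 1, 1 and 2 of the 10 members in these comparisons, against 7.41%, 16.6% and 18.2% of all probe sets. The median difference of the 7 genes for medium versus air was 0.04, with 5 of 7 above 0, and that of all 6765 symbols was -0.02, with 3092 above 0. Low versus air and medium versus air share the same 3 air animals.

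**Figure D1:**
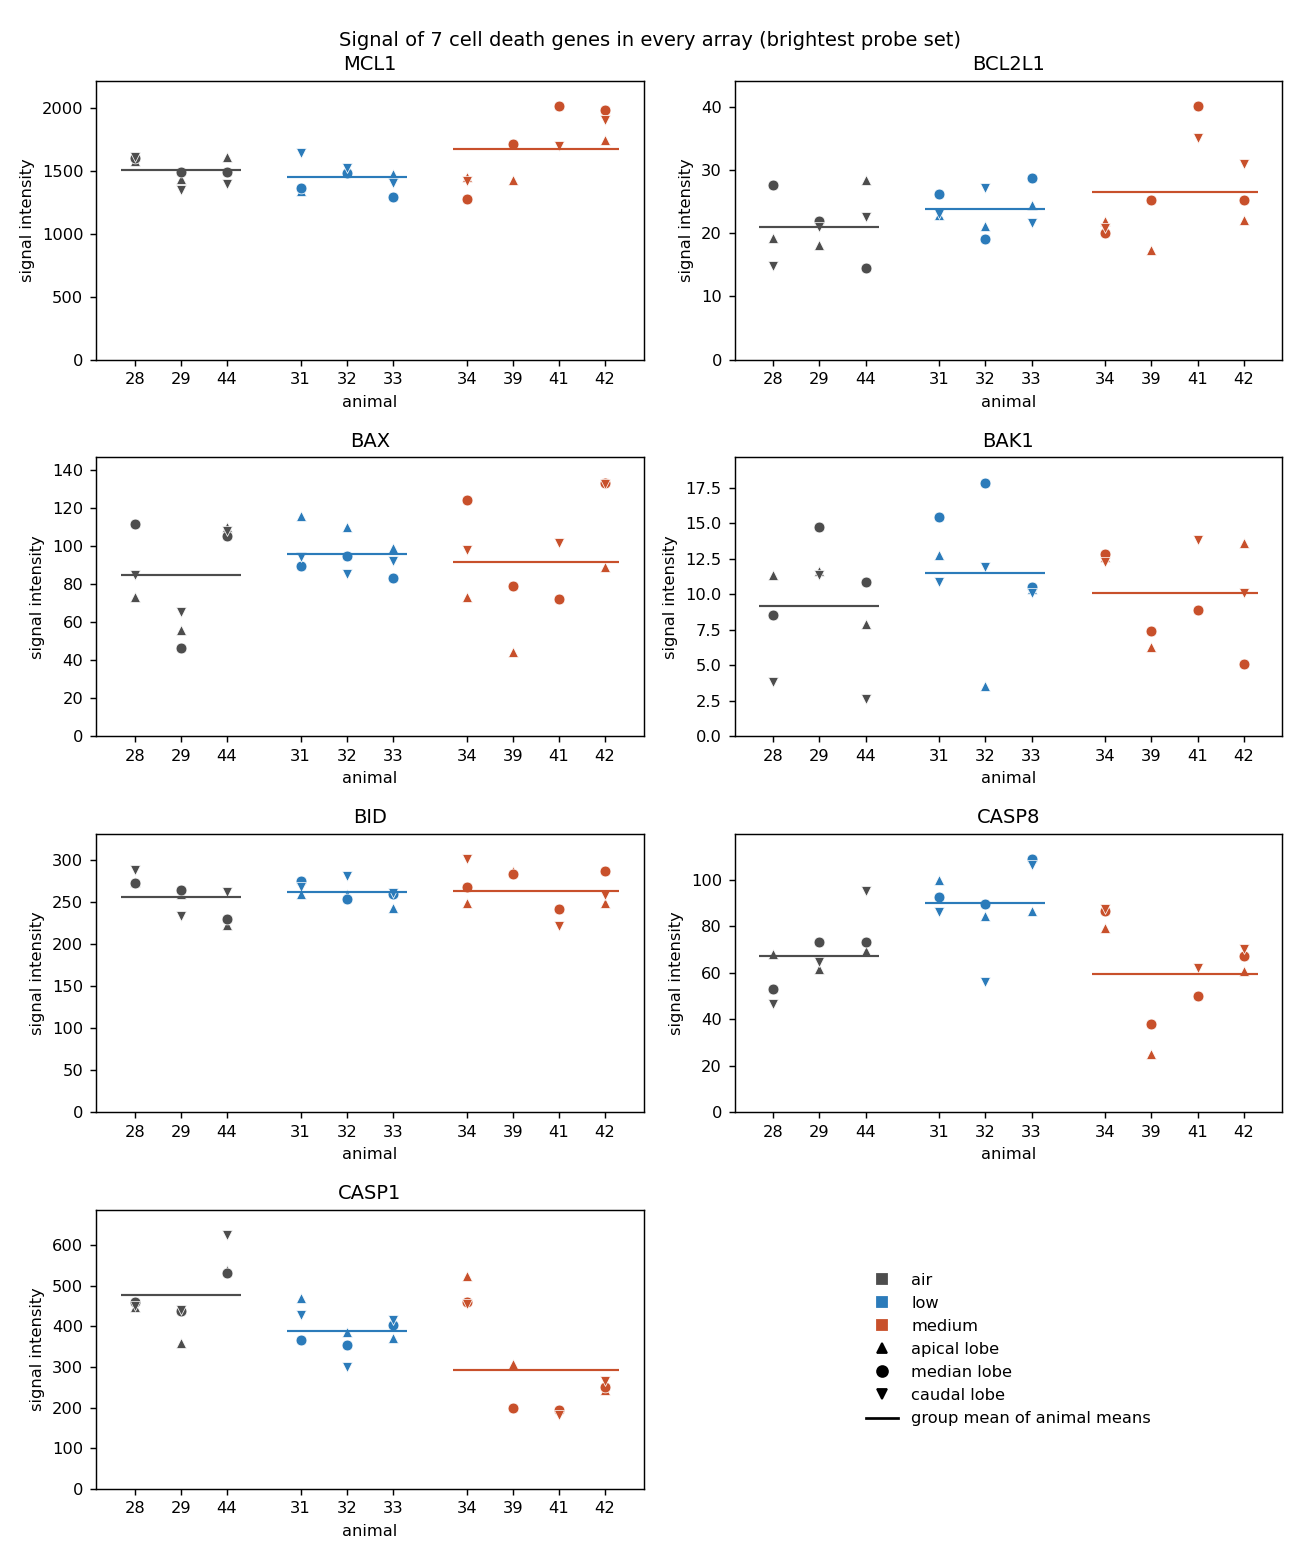
Signal intensity (y axis, linear, from 0) of the brighter probe set of each of the 7 genes in every array, by animal (x axis) and colored by exposure. Markers give the lobe and lines the group mean of the animal means. The mean CASP1 of 3 medium animals lies below that of every other animal, while animal 34 lies among the air animals. Single CASP1 arrays overlap, with 307 in the apical lobe of medium animal 39 and 299 in the caudal lobe of low animal 32.

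Of the survival genes, MCL1 is the short-lived BCL2 relative that cells must keep making (probe set Ssc.13766.1.A1_at). Its signal was 1596, 1426 and 1497 in air animals 28, 29 and 44, and 1450, 1508 and 1391 in low animals 31, 32 and 33. Medium animals 34, 39, 41 and 42 had 1383, 1570, 1853 and 1877. Animals 41 and 42 were above all others, and animal 34 was the lowest of the 10, so the groups overlapped. The difference between medium and air was 0.12 ± 0.11 (SE, adjusted p = 0.602), with a 95% interval from -0.11 to 0.36. The low dose differed from air by -0.06 ± 0.11 (adjusted p = 0.916, interval -0.31 to 0.19).

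BCL2L1 encodes BCL-XL, the survival protein of the outer mitochondrial membrane, and its probe sets were dim, near the lower quartile of the arrays. The brighter one (Ssc.16334.1.S1_at) read 20.6, 20.3 and 21.8 in the air animals, 24.0, 22.5 and 24.9 in the low animals and 21.0, 21.3, 37.5 and 26.1 in the medium animals. Animal 41 was the highest of all. The differences from air were 0.07 ± 0.10 at the low dose (adjusted p = 0.855) and 0.15 ± 0.09 at the medium dose (adjusted p = 0.420). The second probe set went the other way, with -0.20 ± 0.11 at the low dose (adjusted p = 0.703) and -0.07 ± 0.11 at the medium dose (adjusted p = 0.780). The probe sets of this gene therefore disagree in direction against air, and neither passed.

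Among the effectors, BAX opens the mitochondrial membrane and is a known target of p53. Its signal (Ssc.23470.1.S1_at) was 89.8, 55.8 and 107.5 in air, 99.6, 96.4 and 91.3 in low and 98.3, 61.6, 86.8 and 118 in medium animals. Air animal 29 and medium animal 39 were the lowest, and the medium group spanned most of the range of the others. BAX differed between medium and air by 0.11 ± 0.20 (adjusted p = 0.831, interval -0.33 to 0.55) and between low and air by 0.18 ± 0.21 (adjusted p = 0.841, interval -0.29 to 0.65). Those intervals are wide: a rise of 0.5 on the log2 scale lies inside both. Leaving out air animal 29 turned both differences negative, to -0.035 for low and -0.11 for medium versus air, and leaving out medium animal 42 turned the second one negative as well.

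BAK1, the other effector, read below the offset of 16 in the mean of every animal, so its differences are compressed. The probe set used (Ssc.16343.1.A1_at) read 7.91, 12.6 and 7.15 in air, 13.0, 11.1 and 10.4 in low and 12.6, 6.86, 11.4 and 9.59 in medium animals. The groups overlapped, and the difference between medium and air was 0.01 ± 0.11 (adjusted p = 0.985). Its second probe set read 7.50, 7.09 and 6.34 in air and 13.1, 9.45 and 14.0 in low animals. The difference between low and air, 0.25 ± 0.11, did not pass (adjusted p = 0.666).

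BID, the BH3-only protein that caspase-8 cuts, varied little between animals. Its brighter probe set (Ssc.19150.1.S1_s_at) read 278, 252 and 238 in air, 267, 265 and 254 in low and 272, 285, 232 and 264 in medium animals. The 3 groups lay within one another, and the SD between animals of a group, 0.095 on the log2 scale, exceeded that of 19.8% of probe sets. Medium differed from air by 0.04 ± 0.08 (adjusted p = 0.864), with an interval from -0.14 to 0.22. Low differed from air by 0.05 ± 0.09 (adjusted p = 0.887). The second probe set read 219, 204 and 218 in the low animals and 203, 174, 164 and 187 in the medium animals. Its difference between medium and low was -0.23 ± 0.10 (adjusted p = 0.258), against -0.02 ± 0.08 for the brighter probe set (adjusted p = 0.932).

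CASP8, the initiator caspase of the death receptor route (Ssc.31212.1.S1_at), stood highest at the low dose. Its signal was 55.9, 66.6 and 79.3 in air, 92.9, 76.8 and 100.7 in low and 84.6, 31.5, 56.1 and 66.2 in medium animals. All 4 medium animals were below the low mean of 90.1, but animal 34 was above low animal 32. The difference between medium and low was -0.50 ± 0.21 (adjusted p = 0.248, interval -0.96 to -0.04), and that between low and air 0.33 ± 0.22 (adjusted p = 0.725). Medium differed from air by -0.17 ± 0.21 (adjusted p = 0.732), and without animal 39 this difference was 0.010. The lowest CASP8 signal was in animal 39, which also had the highest index of RNA integrity. In medium animals 34, 42, 41 and 39 the index rose as 0.66, 0.84, 1.26 and 2.14 while CASP8 fell. Low animals 31 and 33 had an index of 0.61 and the most CASP8, against an index of 1.05 in low animal 32. In air animals 28, 29 and 44 the index was 1.34, 0.96 and 1.04, with CASP8 lowest in 28 but highest in 44. With the index as a covariate the difference between medium and low was -0.20 (adjusted p = 0.339), and over the 8 animals with all lobes, which leaves out 39 and 41, it was -0.18 (adjusted p = 0.674). The sum of 4 of 7 ciliated cell markers also stood highest at the low dose, from 634 to 860, against 515 to 601 in air and 452 to 557 in medium animals. For medium versus low 0 of the 4 were called, against 0.00417% of all probe sets, and their median difference was -0.61. At an unadjusted p under 0.05, limma gave 4 of 4 lower, against 703 of all 6765 symbols. None of the 4 markers had a mean of 0, and their part in the CASP8 values was not tested. The part of RNA integrity in the CASP8 values was not tested either, and the index differed by exposure.

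CASP1, the inflammasome caspase (Ssc.16012.1.S1_at), separated 3 medium animals from the rest. Its signal was 453, 412 and 564 in the air animals and 421, 346 and 396 in the low animals. In the medium animals it was 480, 253, 188 and 253, so animals 39, 41 and 42 were below every air and low animal, and animal 34 was above 2 of the 3 air animals. The difference between medium and air was -0.75 ± 0.25, a level 1.68 times lower, and did not pass (adjusted p = 0.194, interval -1.31 to -0.18). The low dose differed from air by -0.27 ± 0.27 (adjusted p = 0.804), with 3 of 3 low animals below the air mean, and medium from low by -0.47 ± 0.25 (adjusted p = 0.344). The SD of CASP1 between animals of a group, 0.38 on the log2 scale, was larger than that of 95.6% of probe sets, while its SD between the lobes of an animal was 0.15, near the median of 0.16 over all probe sets.

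In the fits with 1 value per animal, CASP1 was called only without animal 34. Without it, the difference between medium and air was -1.0 (adjusted p = 0.0318), 1 of 10 members among 1% of all probe sets called, and that between medium and low -0.73 (adjusted p = 0.0341), 1 of 10 among 5.72%. The labels put animal 34 in the medium group like the other 3, and leaving it out was 1 of 10 such fits, so the value with all animals stands as the result. A fit to all arrays with the animal as a random effect also called CASP1 for medium versus air, at -0.71 (adjusted p = 0.0221), 1 of 10 among 4.35% of all probe sets. That fit counts lobes of 1 animal as partly separate evidence. Over the 8 animals with all lobes the difference was -0.41 for medium versus air (adjusted p = 0.419) and -0.14 for medium versus low (adjusted p = 0.872).

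The T and NK cell markers ran in part with CASP1 among the medium animals. The summed signal of 8 of 10 listed T and NK cell markers that were measured ran from 1591 to 1613 in air and from 1173 to 1802 in low animals, and it was 1403, 917, 749 and 1089 in animals 34, 39, 41 and 42. None of these 8 markers was called for medium versus air or low versus air, against 0.129% and 0% of all probe sets. Their median difference was -0.38 for medium versus air, with 1 of 8 above 0, and 0.02 for low versus air, with 4 above 0. For medium versus low it was -0.43, with 0 above 0. At an unadjusted p under 0.05, limma gave 2 of 8 lower for medium versus air, against 710 of all 6765 symbols. For medium versus low it gave 4 of 8 lower, against 703. The measured set included CD3D, CD3E, CD3G, CD2, CD8A and GNLY, and none had a mean of 0 in any group. The sum of 4 of 7 monocyte and macrophage markers ran from 2180 to 2978 in air, 2387 to 3351 in low and 1279 to 3040 in medium animals, with animal 39 lowest and animals 34, 41 and 42 at 2874, 2647 and 3040. The sum of 2 of 5 B and plasma cell markers ran from 1811 to 1874 in air and from 1440 to 1637 in low animals. It was 1645, 1466, 1423 and 1607 in medium animals 34, 39, 41 and 42. The part of these cell types in the CASP1 difference was not tested, and in whole tissue fewer cells of a type and less RNA per cell cannot be told apart. With the index of RNA integrity as a covariate the CASP1 difference between medium and air was -0.70 (adjusted p = 0.143), and that between medium and low -0.28 (adjusted p = 0.646).

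**Figure D2:**
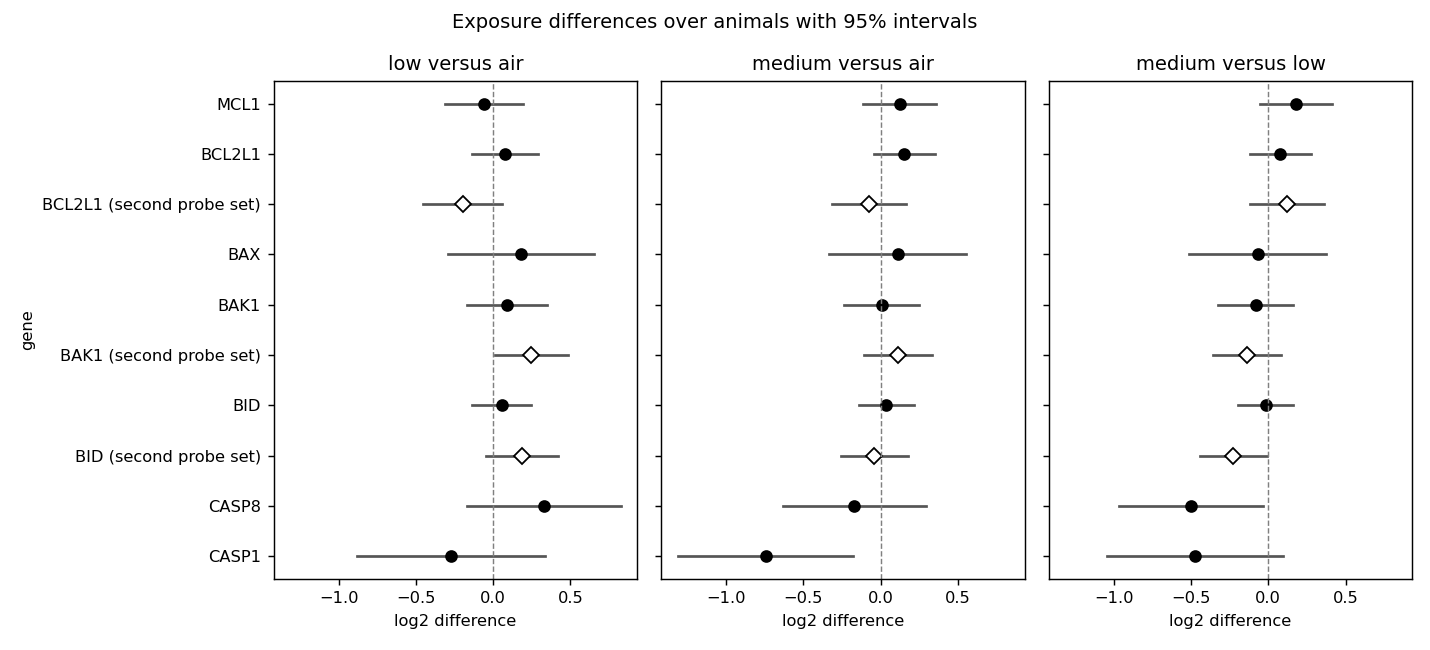
Log2 difference (x axis) of each of the 10 probe sets in the 3 exposure comparisons over animals, with 95% intervals as bars and 0 as the dashed line. The interval of CASP1 for medium versus air, from -1.31 to -0.18, lies furthest from 0, and that of the brighter BID probe set is the narrowest.

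The question whether a dose acted alike in each lobe was addressed by separate fits with 1 array per animal. In the apical lobe 0 of 10 members were called in each comparison, against 0% of probe sets for low versus air, 0% for medium versus air and 0% for medium versus low. In the median lobe 0 of 10 were called, against 0%, 0.404% and 0.0208% in the same order, and in the caudal lobe 0 of 10 against 0%, 0.00417% and 0%. At an unadjusted p under 0.05, limma gave at most 3 of 10, in the caudal lobe for medium versus air, against 15.5% of all probe sets.

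CASP1 was lower in medium than in air animals in each lobe without passing. The arrays of animal 34 read 523, 461 and 456 in the apical, median and caudal lobe, and the 7 arrays of the other medium animals lay between 182 and 307. Air arrays lay between 359 and 624, so animal 34 was inside the air range in all of its lobes and the others outside it. The difference between medium and air was -0.39 ± 0.26 in the apical (adjusted p = 0.909), -0.83 ± 0.25 in the median (adjusted p = 0.128) and -0.79 ± 0.29 in the caudal lobe (adjusted p = 0.262). Each lobe holds different medium animals, since the apical lobe lacks animal 41 and the caudal lobe animal 39. In the median lobe without animal 34, CASP1 was called against air at -1.10 (adjusted p = 0.0247), 1 of 10 members among 1.66% of probe sets. Against the low dose CASP1 at -0.78 (adjusted p = 0.0220) and CASP8 at -0.69 (adjusted p = 0.0494) were then called, 2 of 10 among 5.47%.

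CASP8 differed between medium and low by -0.59 ± 0.24 in the apical (adjusted p = 0.418), -0.55 ± 0.19 in the median (adjusted p = 0.143) and -0.16 ± 0.24 in the caudal lobe (adjusted p = 0.874). In the median lobe the low arrays read 92.8, 89.4 and 109 and the medium arrays 86.7, 37.9, 50.3 and 67.3. Animal 34 came close to the low arrays. In the caudal lobe low animal 32 was at 56.2, below every medium array there.

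BAX had the lowest p of the members in the test of whether the exposure difference depends on the lobe. In the apical lobe BAX read 73.1, 55.5 and 110 in air, 116, 110 and 98.9 in low and 73.1, 44.2 and 88.9 in medium animals 34, 39 and 42. The low arrays were above all medium arrays there. In the caudal lobe it read 84.7, 65.3 and 108 in air, 93.8, 85.1 and 92.0 in low and 97.8, 102 and 132 in medium animals 34, 41 and 42. In the caudal lobe every medium array was above every low one, but animal 41 stood in the place of animal 39. BAX was picked by its p in this test, which it did not pass (adjusted p = 0.597, moderated F). The share of all probe sets that lie apart like this in the apical and caudal lobes was not counted. Animals 34 and 42, which have both lobes, were higher in the caudal lobe, and all 3 low animals were higher in the apical lobe.

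The BAX difference between medium and low was -0.52 ± 0.22 in the apical (adjusted p = 0.435), 0.19 ± 0.26 in the median (adjusted p = 0.710) and 0.24 ± 0.16 in the caudal lobe (adjusted p = 0.672). Against air, medium differed by -0.14 ± 0.22 in the apical, 0.25 ± 0.26 in the median and 0.34 ± 0.16 in the caudal lobe (adjusted p = 0.980, 0.640 and 0.362). The moderated F of the interaction was 5.87 and ranked 165 among 23999, but did not pass (adjusted p = 0.597). The interaction called 0 of 10 members against 0% of all probe sets, and at an unadjusted p under 0.05 limma gave 1 member, BAX, and 7.39% of all probe sets.

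**Figure D3:**
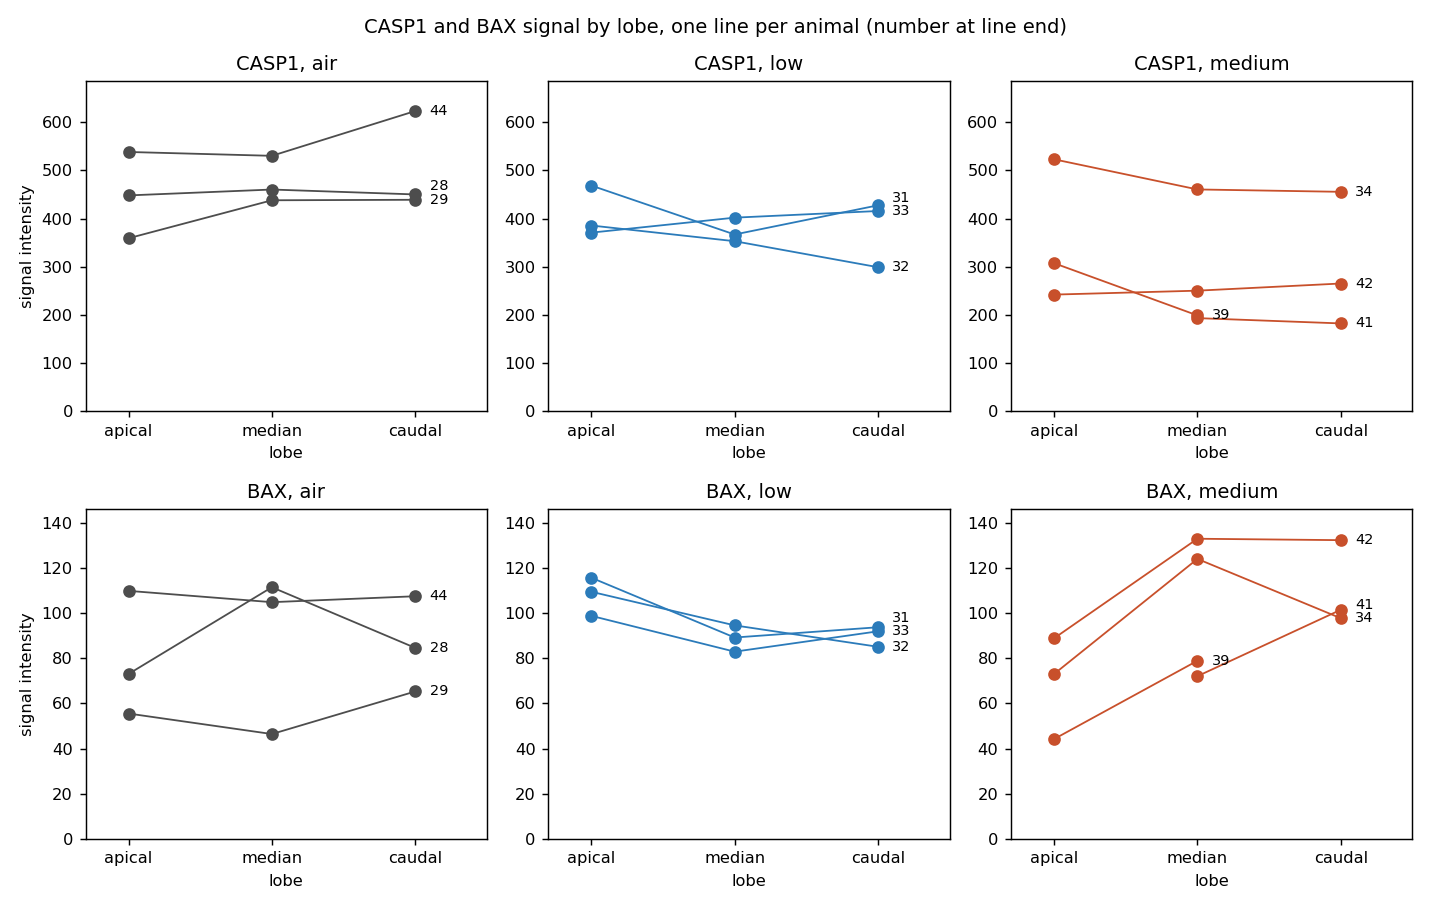
Signal intensity (y axis, linear, from 0) of CASP1 in the upper and BAX in the lower panels by lobe (x axis), for air, low and medium animals from left to right, with 1 line per animal. Medium animals 39, 41 and 42 lie low for CASP1 in each lobe they have, and BAX lies higher in the apical than the caudal lobe in the 3 low animals and lower in animals 34 and 42.

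Lobes of the same animal were compared across all 10 animals with the animal as a block. Apical minus median called 0 of 10 members against 2.38% of probe sets, apical minus caudal 0 of 10 against 0.167%, and median minus caudal 0 of 10 against 0%. At an unadjusted p under 0.05, limma gave 2, 0 and 0 of the 10, against 16.6%, 13.6% and 11.6% of all probe sets. All 30 member differences between lobes lay between -0.20 and 0.10. BID was lower in the apical than in the median lobe in 8 of the 9 animals that had both, by -0.06 ± 0.04 for its brighter probe set (adjusted p = 0.507) and by -0.10 ± 0.04 for the second (adjusted p = 0.184).

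For each gene the symbol with the most similar log2 values over the 28 arrays was found among symbols with a mean signal of at least 50. It was AIF1 for CASP1 (Pearson r = 0.891), UFL1 for CASP8 (r = 0.916), DDX51 for MCL1 (r = 0.842) and MRPL51 for BID (r = 0.736). It was MMGT1 for BCL2L1 (r = 0.711), RAB4B for BAX (r = 0.688) and DCAF7 for BAK1 (r = 0.601). The arrays share animals and scaling, so these are descriptions over 28 arrays from 10 animals.

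Other genes of the death pathways were taken from a list of 66, of which 28 were measured. For medium versus air 1 of the 28 was called higher and 0 lower, the median difference was -0.08 and 7 of 28 were above 0; of all 6765 symbols 10 were called higher and 2 lower, and 3092 were above 0. For low versus air 0 were called, with a median of 0.04 and 17 above 0 (3389 of 6765 over all symbols), and for medium versus low 0 were called, with a median of -0.07 and 9 above 0 (3139 of 6765). At an unadjusted p under 0.05, limma gave 3 of the 28 higher and 0 lower for low versus air, against 235 and 227 of all 6765 symbols. For medium versus air it gave 3 higher and 1 lower, against 593 and 710. For medium versus low it gave 3 higher and 2 lower, against 598 and 703.

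The gene called was PMAIP1, which encodes the BH3-only protein NOXA, a p53 target that binds MCL1. Its signal was 57.9, 59.6 and 67.0 in air, 92.4, 84.2 and 78.2 in low and 113, 112, 128 and 174 in medium animals, in the order of animals used above. The 3 groups did not overlap, with the lowest medium animal above the highest low animal. PMAIP1 was picked by its p in these same animals, and the share of all probe sets that lie apart like this was not counted. It rose at the medium dose by 0.91 ± 0.14 (adjusted p = 0.0491), in 4 of 4 animals, and differed by 0.37 ± 0.15 at the low dose (adjusted p = 0.661). The call lies close to the threshold: it was lost in 7 of the 10 fits that left out 1 animal, with adjusted p from 0.0322 to 0.264, while the difference stayed between 0.77 and 0.97. Those 7 were without any one of air animals 28, 29 and 44, low animals 31, 32 and 33 or medium animal 41. MCL1, its partner, differed by the 0.12 given above.

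The next genes of the list by p did not pass. BNIP3L, a mitophagy receptor of the BCL2 group, differed between medium and air by -0.36 ± 0.13 (adjusted p = 0.207), and BCL2L13, another BCL2-like protein of mitochondria, by 0.16 ± 0.07 (adjusted p = 0.299). Of the death receptor genes, the TNF receptor TNFRSF1A differed by 0.21 ± 0.09 (adjusted p = 0.282), and its ligand TNF by -0.37 ± 0.17 (adjusted p = 0.313). TNFSF10, the ligand TRAIL, differed by -0.66 ± 0.30 (adjusted p = 0.308). Its signal was 336, 338 and 422 in air, 392, 445 and 450 in low and 428, 132, 199 and 224 in medium animals. As with CASP1, animals 39, 41 and 42 were below all others and animal 34 was not.

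The measured substrates of caspase-1 were IL1B, IL18 and GSDMD, chosen for this comparison after their values were seen. IL18 differed between medium and air by -0.36 ± 0.25 (adjusted p = 0.514), and its signal was 299, 245 and 252 in air, 346, 317 and 311 in low and 333, 210, 111 and 204 in medium animals. Animals 39, 41 and 42 were again the lowest of the 10. IL1B and GSDMD differed by -0.11 ± 0.11 and -0.11 ± 0.09 (adjusted p = 0.677 and 0.594). The other measured caspases were CASP2, at -0.01 ± 0.10 (adjusted p = 0.984), and CASP6, an executioner, at -0.02 ± 0.09 (adjusted p = 0.923).

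The mitochondrial and inhibitor genes gave 0 calls among 6 and 3 measured, against 0.129% of all probe sets for medium versus air. CYCS, which encodes cytochrome c, differed between medium and air by 0.26 ± 0.15 (adjusted p = 0.406), and CFLAR, the inhibitor of caspase-8 at death receptors, by 0.28 ± 0.17 (adjusted p = 0.434). Of the 3 inhibitors only 1 was above 0, with a median difference of -0.03. Of the 6 mitochondrial genes 3 were above 0, with a median of 0.02. VDAC1 and VDAC2, channels of the outer mitochondrial membrane, differed by 0.13 ± 0.06 and -0.19 ± 0.09 (adjusted p = 0.316 and 0.319), in opposite directions. FAS, a death receptor and p53 target, differed by -0.17 ± 0.13 at a dim mean signal of 21.4 in air and 18.9 in medium animals (adjusted p = 0.551).

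**Figure D4:**
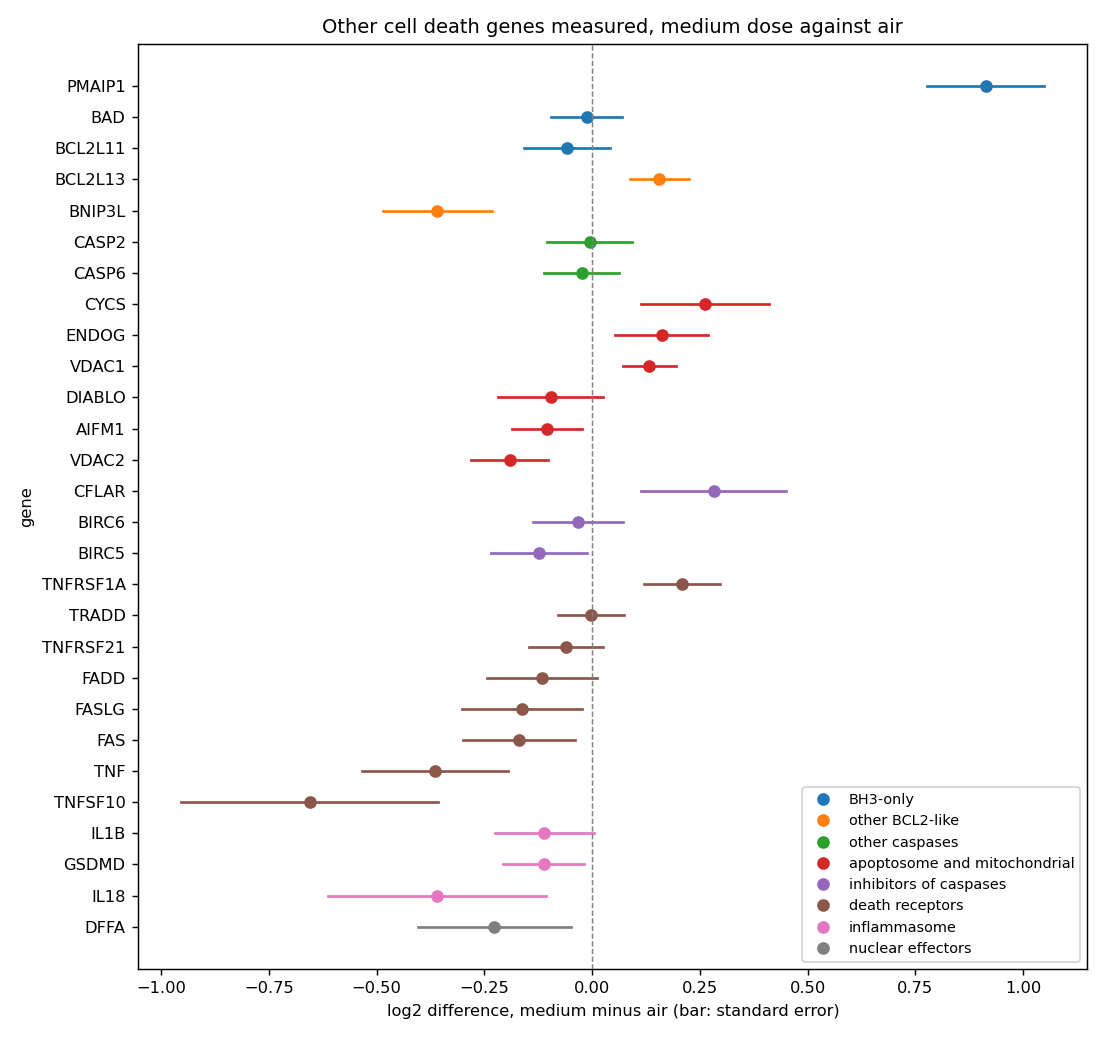
Log2 difference between medium and air (x axis) of the 28 other cell death genes measured, colored by role, with the standard error as bars and 0 as the dashed line. PMAIP1, at 0.91, is the gene called, and TNFSF10, at -0.66, lies furthest on the other side without passing.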

How the data were processed

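Total RNA of the lobes was labelled with biotin and hybridised to the Affymetrix porcine array, per the labels. The deposited values are signal intensity per probe set. Their trimmed mean (2% of probe sets trimmed at either end) is 150 in each array, from which scaling by the authors is inferred. The summarization software is not given in the sources used here, nor is the scaling target, and any other steps are unknown. Of 24123 probe sets, 124 controls were left out. Of the other 23999, a supplied annotation gave 1 symbol for 10069 and several for 198, and did not list 13732.

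Log2(signal + 16) was quantile normalized and tested with limma 3.58.1 in R 4.3.3 (lmFit and eBayes). An animal entered with 1 value, its term in a linear fit with animal and lobe, and the 3 exposure groups were fitted together. Lobes were also fitted separately. Lobe contrasts and the interaction had the animal as a block, since the sample titles give 1 animal number to the lobes of an animal. P-values were adjusted by Benjamini-Hochberg. The labels name no scan batch. All members were named whatever their p, with the 6 genes of lowest p in medium versus air from a list of 66 cell death genes, and others are named as examples chosen after their values were seen. The members, lists and rules were chosen with earlier results of these data known. The steps were tested on simulated data. Python 3.11.15 with matplotlib 3.10.9 drew the figures.

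Alternatives were median-centred arrays, the deposited scaling, an offset of 1, the brighter part of the probe sets, trend and robust eBayes, a random animal effect, plain animal means, the RNA index as covariate, only the groups compared, the 8 complete animals, the mean of a gene's probe sets, no animal block, only the air animals for lobes and each animal left out.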

Additional observations from a re-analysis of the deposited data

How the results depend on the processing

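Of the 30 exposure differences of the members over animals, 19 kept their sign in every one of up to 21 alternatives. The number of members called moved from 0 to 1 for medium versus air with a random animal effect, and otherwise between 0 and 1 for medium versus air and for medium versus low, 0 and 1 for medium versus air in the median lobe and 0 and 2 for medium versus low there when 1 animal was left out; each of those came without medium animal 34. The cause was not tested. All calls for medium versus air numbered 31 and became 53 in the brighter probe sets, 85 with the RNA index, 1044 with a random animal effect, 1 with only the groups compared, 2 in the 8 complete animals and 0 to 391 with 1 animal left out. For medium versus low, 1 became 3, 5 (trend and robust), 1401 (random effect), 2 (groups compared) and 0 to 1372, and for low versus air 0 became 28 (random effect) and 0 to 2. Over all alternatives, the calls in the median lobe went from 97 to between 0 and 398 for medium versus air and from 5 to between 0 and 1312 for medium versus low, those in the caudal lobe from 1 to between 0 and 244 and from 0 to between 0 and 92, those for apical minus median from 570 to between 0 and 1005, and those for apical minus caudal from 40 to between 0 and 150.

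Small differences changed sign. With the mean of a gene's probe sets, BCL2L1 was -0.061 for low versus air and BID -0.0018 for medium versus air. In the 8 complete animals the second BID probe set was 0.068 and CASP8 0.15 for medium versus air, and BCL2L1 was -0.0099, BID 0.027 and BAX 0.16 for medium versus low. BID for medium versus low was 0.033 on median-centred arrays, and BAX 0.078 with the RNA index. Leaving out 1 animal gave, for low versus air, BAX from -0.035 to 0.35. For medium versus air it gave the second BCL2L1 probe set from -0.20 to 0.034, BAK1 from -0.073 to 0.12, BID from -0.0068 to 0.10 and its second probe set from -0.12 to 0.039, BAX from -0.11 to 0.28 and CASP8 from -0.32 to 0.010. For medium versus low it gave BID from -0.045 to 0.041 and BAX from -0.19 to 0.061. In the apical lobe it gave CASP1 from -0.25 to 0.045 for low versus air, and BAX from -0.31 to 0.069 and CASP8 from -0.49 to 0.062 for medium versus air. In the median lobe it gave BAX from -0.26 to 0.23 for low and from -0.066 to 0.42 for medium versus air, and CASP8 from -0.26 to 0.020 for medium versus air. In the caudal lobe it gave BAX from -0.054 to 0.24 for low versus air, CASP8 from -0.10 to 0.26 for medium versus air and from -0.37 to 0.0040 for medium versus low. None of these had passed.

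Without the animal block, which pairs the lobes of an animal, BID for median minus caudal was 0.00081. The apical minus median difference of BID was then -0.04 and the BAX interaction F was 1.56, with 0 members called. The block changed no member's call. All calls for apical minus median fell from 570 to 39 without it. With the block kept and 1 animal left out, BID for median minus caudal ran from -0.032 to 0.012. Leaving out 1 animal in the interaction was chosen after seeing the data and gave a BAX F from 4.06 to 9.20. PMAIP1 lost its call with an offset of 1 (adjusted p = 0.0628), with only the groups compared (0.133) and in the 8 complete animals (0.0810). No group of 4 animals held an outlier among the members by Dixon's ratio, of 20 groups tested. The number of animals limits all values, and BAK1 and BCL2L1 lie near the background of the arrays.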
